A study of Homo sapiens with 2 samples.

Results

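The zinc finger genes of chromosome 19 were taken as the RefSeq GRCh38 protein-coding genes on that chromosome whose symbols start with ZNF, which gave 250 of 20033 protein-coding genes. Open chromatin had been mapped by ATAC-seq (the Tn5 transposase cuts and tags DNA where it is accessible) in the human osteosarcoma cell line U2OS. The first library came from cells infected with sh-VNGD, a hairpin against Vanguard, the long non-coding RNA named in the series title, and the second from cells infected with the control hairpin sh-ctrl. Both came from cells in DMEM with fetal bovine serum, each group was 1 library from 1 line, and the number of hairpin sequences behind sh-VNGD was not given in the labels. With 1 library per group there is no replicate and no test: no difference below has a replicate check, each interval covers counting error only, and "higher" and "lower" compare those 2 libraries.

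Most of these genes encode Krüppel-type zinc finger proteins, in which a tandem array of C2H2 fingers reads a DNA sequence and, in many members, a KRAB domain recruits the co-repressor TRIM28 (KAP1) with the H3K9 methyltransferase SETDB1 and HP1 proteins. Many of the targets are transposable elements, and the family is known to have expanded by tandem duplication into clusters on chromosome 19. The zinc finger arrays sit in 1 long last exon, whose chromatin is known in many cell types for H3K9me3 although the promoter of the same gene is open.

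Members were ordered by start coordinate, and a gap of over 500 kb between neighbours ended a run. Of the 250 members, 236 lay in 10 runs of at least 5 members, called clusters 1 to 10 from the short-arm end, and 14 were scattered between them. The clusters held 5, 14, 25, 37, 5, 26, 23, 41, 17 and 43 members in that order. Cluster 4, from ZNF101 to ZNF254, was the longest at 4462 kb (chr19:19668153-24129968), and cluster 10, from ZNF264 to ZNF446, was the most populous within 1298 kb (chr19:57191500-58489533). Of the members, 219 had at least 1 start annotated with its strand, 36 of these had several, and 31 had none. The members include 4 readthrough or divergent entries by their symbols, such as ZNF559-ZNF177 and ZNF470-DT. After duplicate removal, 31326715 tags were kept for sh-VNGD and 22931980 for sh-ctrl, 1.37 times as many in sh-VNGD, at redundant rates of 0.35 for sh-VNGD and 0.56 for sh-ctrl. The deposited lists held 302466 sh-VNGD peaks and 213285 sh-ctrl peaks on the assembled chromosomes, of which 8160 and 6355 lay on chromosome 19. Many members of a cluster are related copies, and the treatment of tags that fit several copies was not given in the sources used here.

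Accessible gene ends were the rule in this family and were found in both libraries. A peak lay within 1000 bp of an outer gene end in both libraries at 194 of the 250 members (77.6%, 95% Wilson interval 72.0 to 82.3%), where the share over all protein-coding genes was 69.9%. A further 12 members had such a peak in sh-VNGD only, where the share over all genes was 4.93%, and 4 in sh-ctrl only, where it was 2.94%. The other 40 members (16.0%) had none in either library, against 22.3% of all genes. The ZNF genes of other chromosomes were close to the members, at 219 of 268 (81.7%), while 18 other zinc finger genes of chromosome 19 with ZFP, ZSCAN, ZIM, ZIK or ZBTB symbols had 8 (44.4%) and the remaining genes of the chromosome 812 of 1183 (68.6%).

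The peaks were as tall in the members as elsewhere. Height is the summit pileup, the number of tags, each extended to 200 bp, that cover the summit, and it is not scaled for depth. Among the 191 members with a peak in the same region of both libraries, the pileup ran from 10 through a median of 80.0 to 189 tags in sh-VNGD and from 9 through 83.0 to 183 tags in sh-ctrl. Over all 13910 genes with such a pair the medians were 73 and 75 tags. The tallest 3 lay in cluster 3: ZNF627 had 189 sh-VNGD tags and 183 sh-ctrl tags, ZNF823 174 and 178 tags, and ZNF564 165 and 182 tags. ZNF91 and ZNF93, which are known to repress SVA and L1 retrotransposons and were picked here for that role after their values were seen, had 85 sh-VNGD and 89 sh-ctrl tags and 116 sh-VNGD and 112 sh-ctrl tags at their starts in cluster 4. ZNF274, which recruits SETDB1 to the 3′ ends of zinc finger genes and was picked in the same way, had 76 sh-VNGD and 77 sh-ctrl tags.

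Accessibility sat at the annotated start rather than at the far end. A peak in both libraries lay within 1000 bp of an annotated start at 188 of 219 members (85.8%, 80.6 to 89.8%), where 70.2% of all genes with an annotated start had one. At the far end 31 of the 219 members had one (14.2%), close to the 17.3% of all genes. Of the 40 members without a peak at an outer end, 15 had one in both libraries at an annotated start inside the outer bounds, among them ZNF420 (86 sh-VNGD and 87 sh-ctrl tags) and ZNF575 (119 and 124 tags). That left 25 members without a peak at any outer end or annotated start in either library. For 4 of these no start was annotated, so only their outer ends were checked.

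Clusters differed in the letters at their starts. In the 300 bases around each annotated start (250 before and 50 after, from RefSeq, GRCh38.p14), the word TCCAATCA, which contains the CCAAT box, was present in either orientation in 52 of 219 members (23.7%), against 1.84% of 15841 promoters of all genes and 9.17% of those of ZNF genes elsewhere. All 52 lay in 3 clusters: 29 of 29 in cluster 4, 19 of 24 in cluster 3 and 4 of 5 in cluster 1. The word read along the gene's own strand in 51 of the 52, with its first base at a median position of -58 relative to the start. A second word, GAGTGACA, was held by 39 members (17.8%, against 1.3% of all promoters and 6.42% of those of ZNF genes elsewhere), 26 in cluster 4, 12 in cluster 3 and 1 in cluster 9, on the strand opposite to the gene in each and at a median position of -121. Both words were chosen after all 8-letter words in the members' promoters had been counted, so their shares are descriptions. The sequences around the first word are shown for members with tall start peaks, 5′ to 3′ on the gene's strand, with TCCAATCA in capitals.
ZNF254, chr19:24087114-24087161, plus strand: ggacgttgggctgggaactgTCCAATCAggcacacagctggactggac
ZNF101, chr19:19668748-19668795, plus strand: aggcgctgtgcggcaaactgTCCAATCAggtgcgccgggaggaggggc
ZNF493, chr19:21397028-21397075, plus strand: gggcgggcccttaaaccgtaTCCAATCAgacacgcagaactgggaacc
ZNF708, chr19:21329415-21329462, minus strand: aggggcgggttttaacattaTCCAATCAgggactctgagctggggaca
ZNF627, chr19:11597368-11597415, plus strand: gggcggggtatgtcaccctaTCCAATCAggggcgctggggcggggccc
ZNF823, chr19:11739022-11739069, minus strand: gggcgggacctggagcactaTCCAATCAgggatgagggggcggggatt
ZNF564, chr19:12551509-12551556, minus strand: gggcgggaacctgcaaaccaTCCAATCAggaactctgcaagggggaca
ZNF77, chr19:2944967-2945014, minus strand: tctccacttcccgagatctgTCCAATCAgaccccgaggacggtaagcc
ZNF57, chr19:2900852-2900899, plus strand: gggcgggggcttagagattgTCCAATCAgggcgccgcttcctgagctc
The summit pileups at these starts were 148 sh-VNGD and 139 sh-ctrl tags for ZNF254, 127 and 138 for ZNF101, 126 and 131 for ZNF493, 122 and 132 for ZNF708, 124 and 135 for ZNF77, and 111 and 107 for ZNF57. The word shifted by 1 base, CCAATCAG, was commoner, in 26.0% of the members' promoters and 5.32% of all.

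The core of the ETS transcription factor motif, CCGGAAG, had another distribution. It was present in 101 of 219 members (46.1%) in either orientation, against 14.5% of all promoters and 33.0% of the promoters of ZNF genes elsewhere. Its share was 72.4% in cluster 4, 67.6% in cluster 8, 67.5% in cluster 10 and 75% of only 4 promoters in cluster 5, but 8.33% in cluster 3 and 0 of 5 in cluster 1. In cluster 8 it read along the gene's strand in 23 of 23 matches, with a median position of 4, just inside the transcript. In cluster 4 it lay on the opposite strand in 21 of 21, at a median of -20. A pair of starts from cluster 8 and a pair from cluster 10 are shown with the core, or its reverse complement CTTCCGG, in capitals, because members of each pair have it in nearly the same place and the same orientation. Over all of cluster 10 the orientation was mixed, with 7 matches on the gene's strand and 20 on the opposite one.
ZNF160, chr19:53103397-53103433, minus strand: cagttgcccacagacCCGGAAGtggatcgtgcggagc
ZNF841, chr19:52095740-52095776, minus strand: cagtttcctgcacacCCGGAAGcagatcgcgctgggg
ZNF324, chr19:58467045-58467081, plus strand: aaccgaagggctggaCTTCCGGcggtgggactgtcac
ZNF324B, chr19:58451590-58451626, plus strand: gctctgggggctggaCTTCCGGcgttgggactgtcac
These starts had 114 sh-VNGD and 133 sh-ctrl tags at ZNF160, 117 and 115 at ZNF841, 131 and 121 at ZNF324, and 103 and 119 at ZNF324B. The plain CCAAT box was present in 53.9% of members and 36.3% of all promoters, and the GC box GGGCGGG in 52.5% and 45.2%. The TATA box TATAAA was rarer in members, at 1.83% against 9.46%, as was the E box CACGTG at 4.11% against 8.78%. The AP-1 site TGACTCA was present in 2.74% of members and 3.69% of all promoters. All were searched on both strands. A match is a description of letters and not a bound site.

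**Figure D1:**
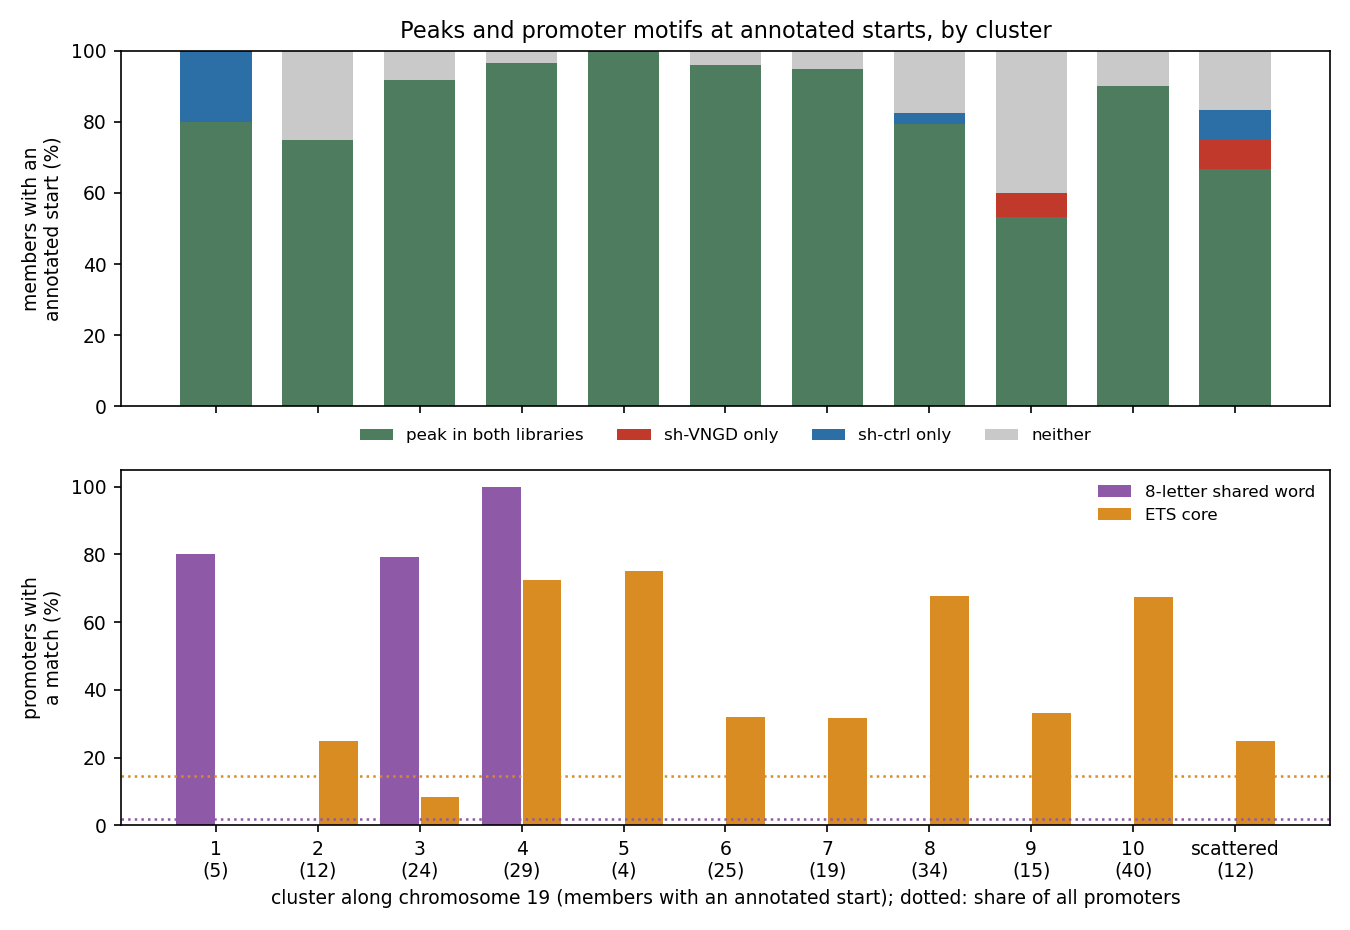
Top: percentage of members with an annotated start that had a peak within 1000 bp of it in both libraries, in sh-VNGD only, in sh-ctrl only or in neither, for clusters 1 to 10 and the scattered members, with the number of members in brackets. Bottom: percentage of the same promoters with the 8-letter shared word around the CCAAT box and with the ETS core, with dotted lines at the shares of all promoters (1.84% and 14.5%); the shared word is seen in clusters 1, 3 and 4 and the ETS core most often in clusters 4, 5, 8 and 10.

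The motif groups had nearly equal ratios between the libraries. Ratios are the log2 of sh-VNGD over sh-ctrl pileup per kept tag, relative to the median of all genes, which was -0.45 before centring. At annotated starts the median was 0.02 for the 49 members with TCCAATCA and 0.00 for the 138 without it, and 0.03 for the 89 with the ETS core and 0.00 for the 98 without it. Members with TCCAATCA had a median start pileup of 108.0 sh-VNGD and 108.0 sh-ctrl tags, against 78.0 and 84.0 tags in the members without it. Height did not follow the word from cluster to cluster: all 29 promoters of cluster 4 held it, with medians of 83.0 sh-VNGD and 86.5 sh-ctrl tags in that cluster, while cluster 3, where 19 of 24 held it, had 139.0 and 130.0 tags.

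The promoter of ZNF627, the member with the tallest peak, is shown whole but for its last 20 bases, to set the word among its surroundings: it has 19 CpG dinucleotides in 300 bases, 63.0% G or C and 1 CCAAT box, in capitals.
ZNF627, chr19:11597233-11597512, plus strand: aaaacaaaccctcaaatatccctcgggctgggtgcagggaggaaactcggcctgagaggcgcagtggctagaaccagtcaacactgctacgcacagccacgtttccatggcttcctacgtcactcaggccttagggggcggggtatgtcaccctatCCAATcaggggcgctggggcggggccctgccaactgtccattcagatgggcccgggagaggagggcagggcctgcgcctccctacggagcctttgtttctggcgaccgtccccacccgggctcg

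At gene ends the members followed the genome and spread a little less. The median of 191 members was 0.00 on the centred log2 scale, with quartiles of -0.15 and 0.16 and a range of -1.42 to 1.07, and the quartiles over all genes were -0.19 and 0.19. Of the 191, 95 were under 0 and 92 over it. A ratio of 0.5 or more was reached by 10 members (5.24%), where 9.0% of all genes reached it, and -0.5 or less by 6 members (3.14%), where 5.35% of all genes did. The counting interval lay wholly above the median of all genes in 5 of the 191 members, against 589 of 13910 genes (4.23%). It lay wholly below in 4 of the 191, against 618 of 13910 genes (4.44%). Both shares were lower in the members than over all genes. Because 10 peak regions were shared by pairs of neighbours, such as ZNF461 and ZNF567, the 210 members with a region had 200 distinct regions.

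**Figure D2:**
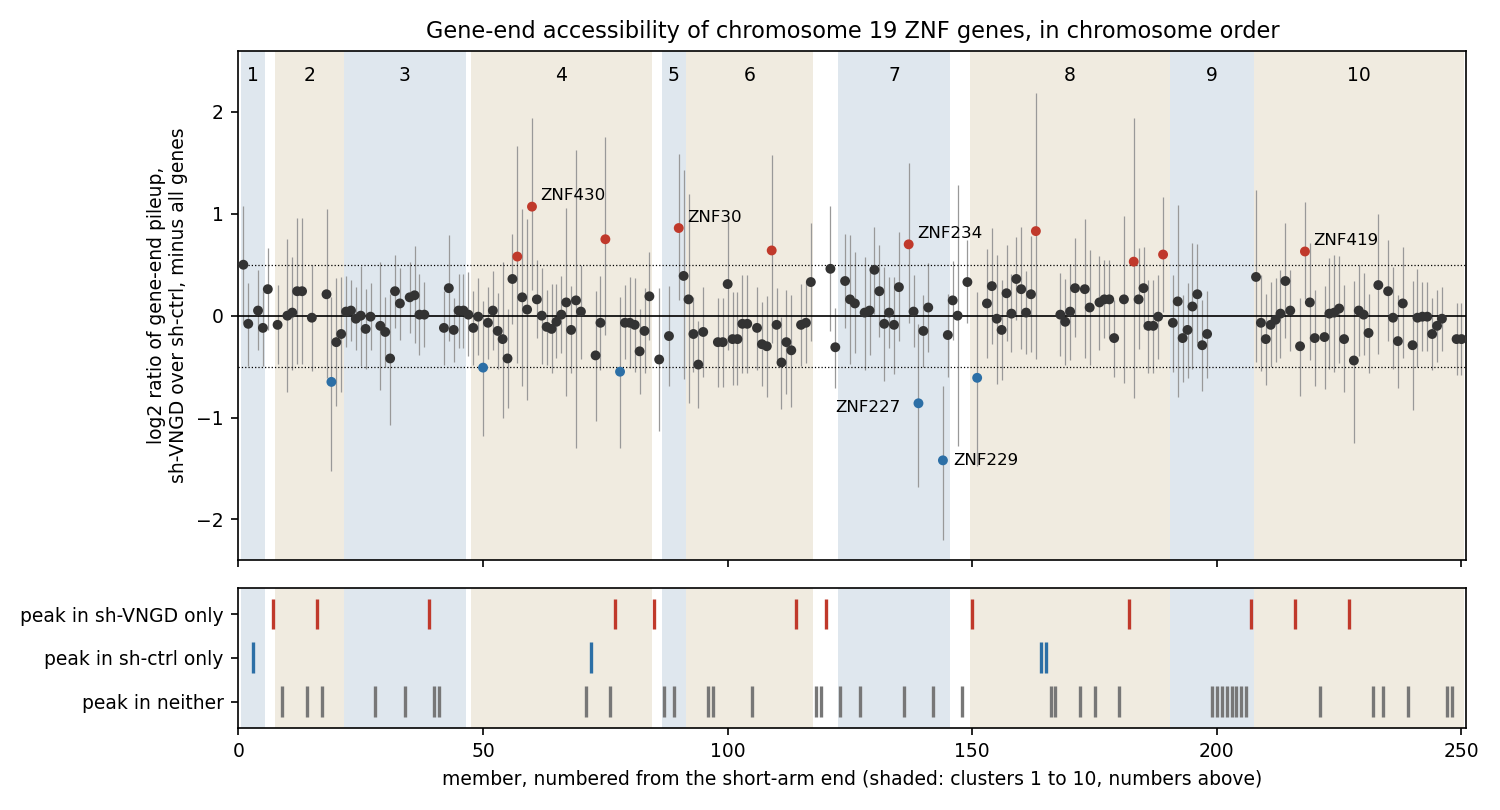
Top: log2 ratio of gene-end summit pileup per kept tag, sh-VNGD over sh-ctrl, relative to the median of all genes, for 191 members in chromosome order, with 95% counting intervals as bars, clusters 1 to 10 shaded and dotted lines at 0.5 and -0.5. Bottom: members whose gene ends had a peak in sh-VNGD alone (12), sh-ctrl alone (4) or neither (40); most points lie between the dotted lines, ZNF229 is lowest and ZNF430 highest, and a block of members without peaks fills the right of cluster 9.

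ZNF430 had the highest ratio, with 40 sh-VNGD tags against 19 sh-ctrl tags at its start in cluster 4 (relative log2 ratio 1.07, 95% counting interval 0.25 to 1.94). ZNF30 in cluster 5 had 49 sh-VNGD and 27 sh-ctrl tags (0.86, 0.15 to 1.59), at a region just outside its bounds. It had no annotated start, and its tallest body peaks were higher, with 67 sh-VNGD and 56 sh-ctrl tags. ZNF419 in cluster 10, whose peak was taller, had 96 sh-VNGD and 62 sh-ctrl tags (0.63, 0.16 to 1.12), but its fold enrichment gave -0.10. ZNF813 in cluster 8 had 71 and 47 tags (0.60, 0.04 to 1.16). The intervals of these 4 lay above the median of all genes. The interval of ZNF234 (39 sh-VNGD and 24 sh-ctrl tags, 0.70) took in 0. Just inside the threshold lay ZNF677, with 13 sh-VNGD and 9 sh-ctrl tags (0.53), and just outside it ZNF554 with 65 and 46 tags (0.50 after rounding up). In the same way ZNF574 with 55 sh-VNGD and 40 sh-ctrl tags (0.46) and ZNF155 with 113 and 83 tags (0.45, 0.02 to 0.87) did not reach it. For ZNF574 the region lay at the far end, and its start had 180 sh-VNGD and 182 sh-ctrl tags. The other members past the threshold, ZNF626, ZNF99, ZNF875 and ZNF610, had at most 28 tags in either library, and ZNF875 had a taller peak of 115 sh-VNGD and 124 sh-ctrl tags at another annotated start.

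ZNF430 holds both shared words and the ETS core: 2 CCAAT boxes, 1 reverse complement of GAGTGACA and 1 CTTCCGG are in capitals in its promoter, shown because the highest ratio of the family was measured there.
ZNF430, chr19:21020407-21020686, plus strand: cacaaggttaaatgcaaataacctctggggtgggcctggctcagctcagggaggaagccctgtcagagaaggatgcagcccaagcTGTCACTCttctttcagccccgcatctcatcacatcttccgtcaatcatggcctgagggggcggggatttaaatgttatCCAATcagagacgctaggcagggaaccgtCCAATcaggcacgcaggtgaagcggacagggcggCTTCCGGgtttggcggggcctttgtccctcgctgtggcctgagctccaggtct

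ZNF229, in cluster 7, had the lowest ratio, with 22 sh-VNGD tags against 59 sh-ctrl tags at its start (relative log2 ratio -1.42, interval -2.20 to -0.69). The promoter at 1 of its 2 annotated starts holds neither the ETS core nor the CCAAT box nor the second shared word. That promoter is shown, without capitals, because the lowest ratio of the family was measured at this gene. Over all members the motif groups had nearly equal ratios.
ZNF229, chr19:44448443-44448722, minus strand: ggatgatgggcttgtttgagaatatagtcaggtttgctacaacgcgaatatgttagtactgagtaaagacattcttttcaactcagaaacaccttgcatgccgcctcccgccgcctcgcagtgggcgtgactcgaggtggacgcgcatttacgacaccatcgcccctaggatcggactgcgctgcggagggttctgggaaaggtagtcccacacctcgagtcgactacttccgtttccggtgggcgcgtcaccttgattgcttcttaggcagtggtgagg
ZNF227, in the same cluster, had 22 sh-VNGD and 40 sh-ctrl tags at its outer end (-0.86, -1.68 to -0.08). The taller peak of ZNF227, at its 1 annotated start, had 56 sh-VNGD and 73 sh-ctrl tags (-0.37). Their neighbour ZNF234 had the highest ratio of that cluster, so high and low members lay within 1 cluster. ZNF561 (21 sh-VNGD and 33 sh-ctrl tags, -0.65), ZNF577 (21 and 32 tags, -0.61), ZNF730 (28 and 41 tags, -0.55) and ZNF506 (35 and 50 tags, -0.51) had intervals that took in 0, and the local background at ZNF561 and ZNF730 went the other way (0.11 and 0.23). For ZNF730 the taller peak at its 1 annotated start had 55 sh-VNGD and 56 sh-ctrl tags (-0.01), and the region of ZNF577 lay at its far end. ZNF566 (79 sh-VNGD and 110 sh-ctrl tags, -0.48, -0.91 to -0.05) and ZNF569 (72 and 99 tags, -0.46, -0.92 to -0.01) stayed just short of the threshold, with intervals wholly below 0. Both lie in cluster 6.

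Where a gene-end peak was called in just 1 library it was low, with 1 exception. ZNF665 had 48 tags in sh-VNGD, over a high local background of 11.1 tags, and none called in sh-ctrl at that end, but 2 taller peaks inside the gene were shared, with 112 sh-VNGD and 90 sh-ctrl tags and with 81 and 60 tags. The next tallest sh-VNGD peaks were those of ZNF175 with 20 tags, ZNF358 with 19, and ZNF780A and ZNF835 with 17 each. In sh-ctrl the tallest were ZNF556 with 17 tags, a region of 17 tags shared by ZNF880 and ZNF528, and ZNF729 with 12. For ZNF358 the sh-ctrl library had a peak of 24 tags at the annotated start instead. The weakest peaks called on chromosome 19 had 7 sh-VNGD tags and 6 sh-ctrl tags, so such peaks lie near the limit of calling at these depths.

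Set side by side, the clusters kept near the genome's ratio in gene-end pileup, with cluster 6 below it and cluster 8 above it. Both are named as the extremes among the clusters with more than 5 members, so the intervals of their summed pileups are descriptions. Those intervals also leave out the spread between members. In cluster 6 the median relative log2 ratio was -0.17, or -0.16 over 19 distinct regions. Of its 22 members, counting neighbours with a shared region separately, 18 lay below 0. Its gene-end pileups summed over distinct regions to 1455 sh-VNGD and 1630 sh-ctrl tags, a relative log2 ratio of -0.16 with a counting interval of -0.27 to -0.06. The 4 members above 0 were ZNF565, ZNF850, ZNF875 and ZNF573, all with at most 59 tags in either library. At annotated starts the median was -0.16, with 21 of 24 members below 0, neighbours with a shared region again counted separately. In cluster 8 the median was 0.14, over members and over 28 distinct regions, and 22 of 30 members lay above 0. Its sums were 2079 sh-VNGD and 1939 sh-ctrl tags (0.10, 0.01 to 0.19). There 7 of the 8 other genes with a gene-end ratio in the span also lay above 0, with a median of 0.14. In gene-end pileup the higher ratio was thus shared with the neighbouring genes. With fold enrichment the median of these neighbours was -0.03, with 3 above 0 and 5 below, and at annotated starts it was 0.05 over 3 genes. In cluster 6 only 2 other genes had a ratio in the span, both above 0.

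The other clusters lay between -0.11 in cluster 9 and 0.05 in cluster 7, apart from cluster 5. Its median of 0.39 rested on 3 members, and at annotated starts it was -0.19 over 4. The difference between clusters 6 and 8 depended in part on the measure. Fold enrichment, the pileup over the local background, had medians of -0.12 in cluster 6 and 0.03 in cluster 8. On that measure clusters 1, 9 and 10 lay lower than cluster 6, at -0.18, -0.15 and -0.13. Cluster 5 lay higher than cluster 8, at 0.11. The local background itself had medians of -0.05 in cluster 6 and 0.16 in cluster 8. Gene-end peaks were tallest in cluster 3, with medians of 128.0 sh-VNGD and 126.0 sh-ctrl tags, and lowest in cluster 2, with 39.0 and 41.0 tags, and in cluster 5, with 49.0 and 27.0 tags over 3 members.

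**Figure D3:**
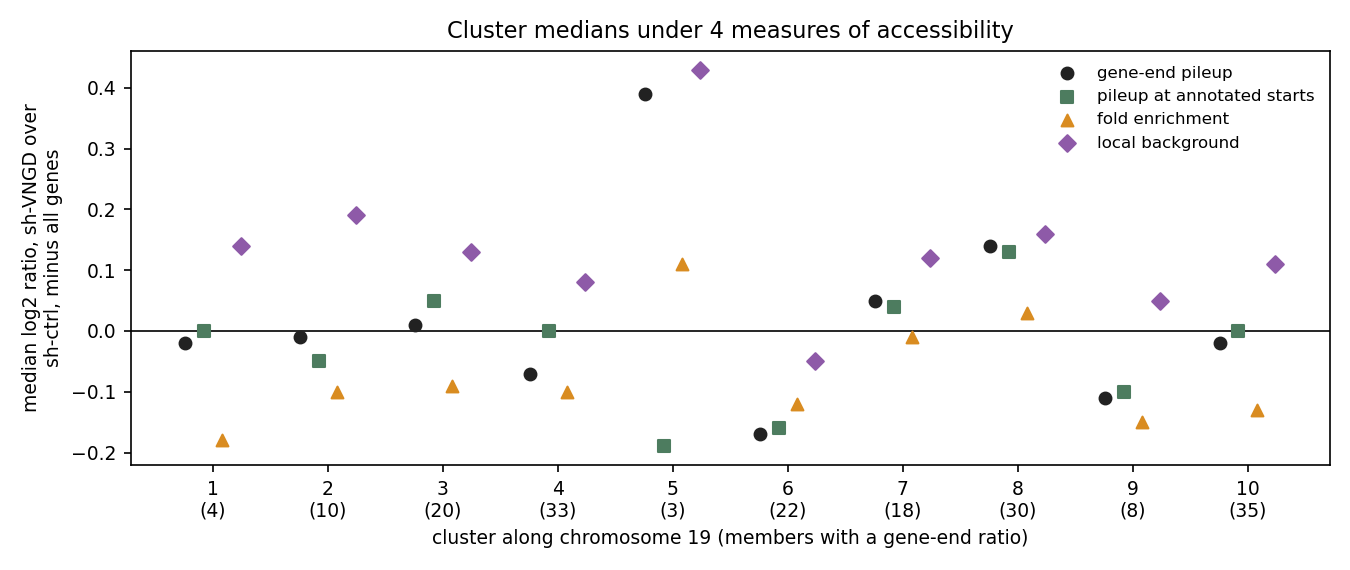
Median log2 ratio of sh-VNGD over sh-ctrl, relative to all genes, in clusters 1 to 10 under 4 measures: gene-end pileup, pileup at annotated starts, fold enrichment and local background. Numbers in brackets are members with a gene-end ratio. Cluster 6 lies below 0 on each measure and cluster 8 above 0 on each. All other clusters change sign between measures, among them cluster 5 with 3 members.

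Cluster 9 had the lowest share of open starts. Only 8 of its 17 members (47.1%) had a gene-end peak in both libraries and 8 had none in either, and at annotated starts 8 of 15 (53.3%, 30.1 to 75.2%) had one in both. In the other clusters with more than 5 members the share at annotated starts ran from 75% in cluster 2 to 96.6% in cluster 4. The closed members were neighbours: ZNF582, ZNF583, ZNF667, ZNF471, ZNF470-DT, ZNF470 and ZNF71 made a run of 7 consecutive members over 242 kb (chr19:56382751-56624486) without a peak at any outer end or annotated start in either library. No other such run held more than 2 members. ZNF470-DT is a divergent transcript by its symbol, and its bounds overlap those of ZNF470 on the start side of both, although each is counted as a member. ZNF582 and ZNF471 are known for promoter DNA methylation in several tumour types, which was not measured here.

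Within the run there were 21 sh-VNGD and 14 sh-ctrl peaks, of which 10 and 9 overlapped a peak of the other library, with median pileups of 15 and 14 tags. A single region reached 30 tags, between ZNF582 and ZNF583, with 106 tags in sh-VNGD (chr19:56395766-56396512) and 91 in sh-ctrl (chr19:56395958-56396514). Inside the gene bodies the tallest of 14 sh-VNGD peaks had 28 tags and the tallest of 8 sh-ctrl peaks 22 tags. The run was closed in both libraries alike.

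**Figure D4:**
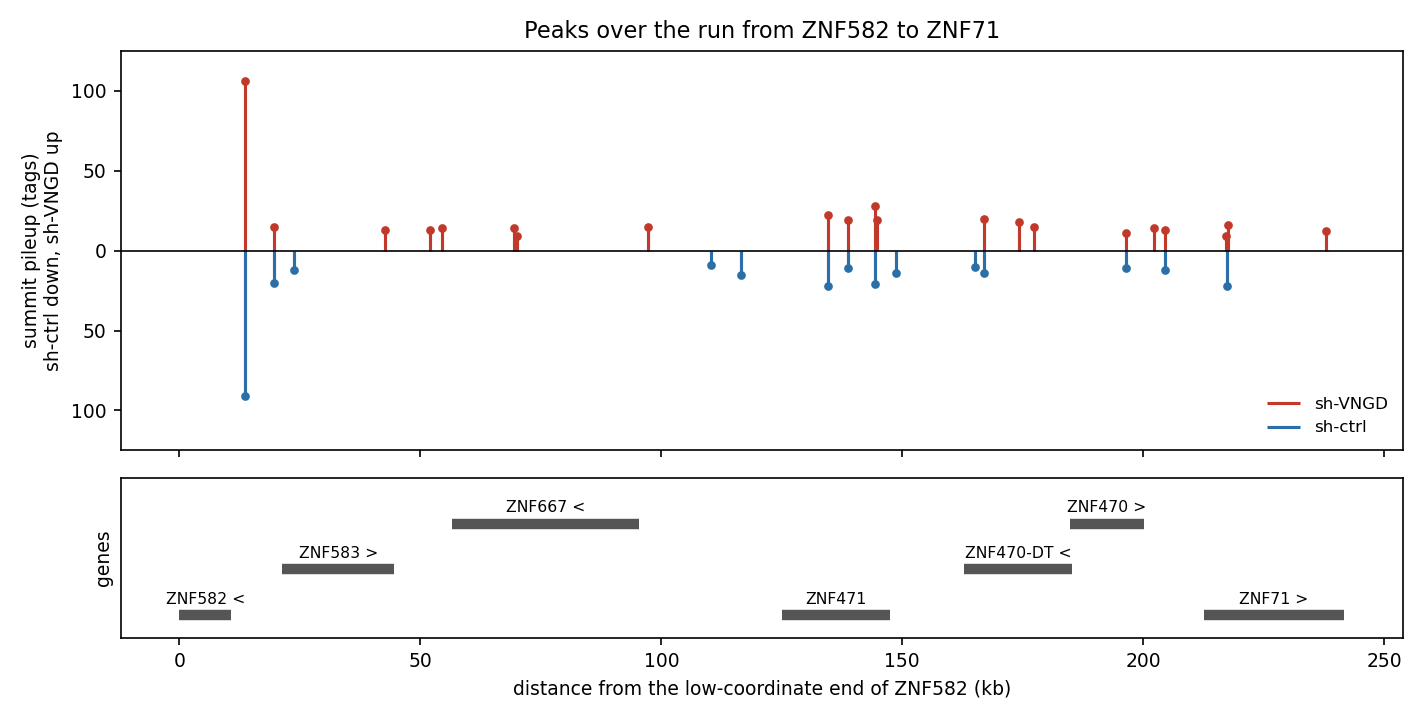
Summit pileup of every peak from ZNF582 to ZNF71, sh-VNGD upwards and sh-ctrl downwards, against distance from the low-coordinate end of ZNF582 in kb, with the 7 genes as bars below and arrowheads for the annotated strand. The only peak over 30 tags in either library (106 in sh-VNGD, 91 in sh-ctrl) lies between ZNF582 and ZNF583.

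Members without a start peak kept CpG-rich starts. Of the 26 members with no peak at an annotated start, 21 had none at an outer end either. The 26 had a median of 20 CpG dinucleotides in 300 bases and an observed over expected CpG ratio of 0.739. These values were close to the 20 and 0.77 of the 188 members with a start peak in both libraries. Among all genes, closed starts had a median of 5 CpG and 0.294, against 26 and 0.839 at open starts. The 6 promoters of the closed run (ZNF471 had no annotated start) had a median of 26 CpG and a ratio of 0.794, from 8 in ZNF470-DT to 42 in ZNF667. The promoter of ZNF667, 75.3% G or C, is shown as the member of the run richest in CpG, with its 1 CCAAT box in capitals.
ZNF667, chr19:56477316-56477595, minus strand: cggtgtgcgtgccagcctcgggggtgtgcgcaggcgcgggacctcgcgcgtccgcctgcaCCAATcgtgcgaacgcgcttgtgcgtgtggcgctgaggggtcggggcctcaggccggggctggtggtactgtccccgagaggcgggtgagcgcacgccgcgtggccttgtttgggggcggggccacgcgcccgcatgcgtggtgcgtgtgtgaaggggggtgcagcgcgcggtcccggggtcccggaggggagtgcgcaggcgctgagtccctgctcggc

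Gene bodies held more peaks in sh-VNGD, as they did genome-wide. Over 6636 kb of member bodies, counted over 1000 bp from both outer ends, there were 839 sh-VNGD peaks and 541 sh-ctrl peaks, which is 12.6 and 8.15 per 100 kb. The ratio of 1.55 (counting interval 1.39 to 1.73) took in the 1.40 of all gene bodies (10.9 and 7.77 per 100 kb) and lay above the 1.23 (1.17 to 1.30) of the other genes of chromosome 19. The sh-VNGD library had 1.42 times as many peaks over the whole genome and 1.37 times as many kept tags, and when its list was cut to the length of the sh-ctrl list the ratio was 1.01 in the members and 0.971 in all genes. The added peaks cannot be told apart from the greater depth of the sh-VNGD library. Of the body peaks, 45.9% of those in sh-VNGD and 70.2% of those in sh-ctrl overlapped one of the other library, where all gene bodies had 50.2% and 70.0%. Most were low: 14.5% of the sh-VNGD and 18.3% of the sh-ctrl body peaks reached 30 tags, near the 17.0% and 21.8% of all gene bodies. ZNF genes elsewhere had 17.3% and 19.7%, and the other genes of chromosome 19 had 32.1% and 37.5%.

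By cluster, body peaks were densest in cluster 1 (18.2 sh-VNGD and 14 sh-ctrl peaks per 100 kb, from 13 and 10 peaks) and sparsest in cluster 7 (8.57 and 6.30). The ratio between libraries was highest in cluster 10, at 80 sh-VNGD and 41 sh-ctrl peaks (1.95, 1.32 to 2.92), and lowest in cluster 5, at 9 and 8 peaks (1.12, 0.385 to 3.35), with intervals that overlapped. The member median was 11.4 sh-VNGD and 7.35 sh-ctrl peaks per 100 kb, and 49 members had none in sh-VNGD and 59 none in sh-ctrl.

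**Figure D5:**
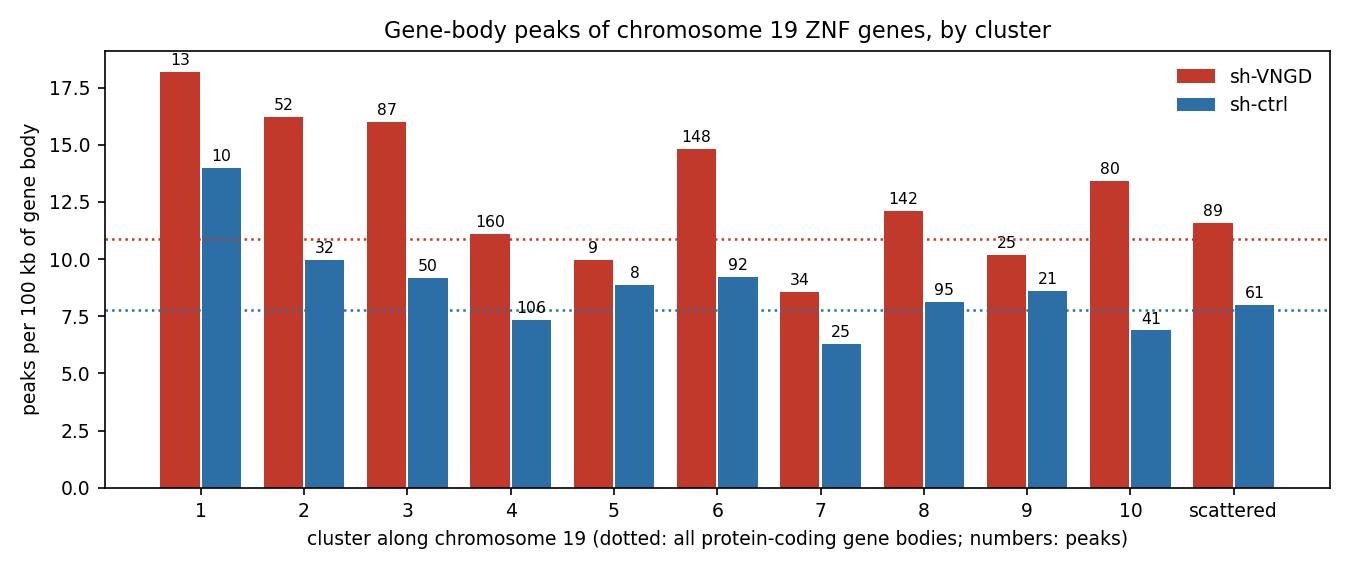
Gene-body peaks per 100 kb in clusters 1 to 10 and the scattered members, sh-VNGD left of sh-ctrl, with the number of peaks above each bar and dotted lines at the densities of all protein-coding gene bodies (10.9 and 7.77 per 100 kb). The sh-VNGD bar is the taller in every cluster.

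Each body was divided into 5 equal parts from the start in the 219 members with a strand, and the first part was the poorest, with 9.62 sh-VNGD and 6.33 sh-ctrl peaks per 100 kb, and the second held 14.7 and 9.45. The last part, which ends with the zinc finger exon in most of the family, held 12.2 and 7.73. All genes were even along the body, at 10.7 to 11.3 in sh-VNGD and 7.67 to 7.95 in sh-ctrl. ZNF genes elsewhere also had their lowest density in the first part, at 8.73 and 5.83.

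ZNF536, a repressor of neuronal differentiation with a body of 486 kb, had the most body peaks, 51 in sh-VNGD and 38 in sh-ctrl, at 10.5 and 7.82 per 100 kb. ZNF420 followed with 18 and 11 peaks, ZNF69 with 15 and 10, ZNF331 with 12 and 11, and ZNF44 with 15 and 7. Some of these are starts inside the outer bounds of the gene or of a neighbour: in ZNF331, an imprinted gene with several annotated starts, the tallest body peak (118 sh-VNGD and 130 sh-ctrl tags) lies at an annotated start. Per 100 kb ZNF575 was densest, with 3 sh-VNGD and 2 sh-ctrl peaks in 3.25 kb, with 119 and 124 tags at the tallest, followed by ZNF581, ZNF132, ZNF77 and ZNF329, whose bodies ran from 5.34 kb in ZNF132 to 26.9 kb in ZNF329. ZNF132 had 2 shared body peaks but none at its start in either library.

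Genes of the silencing machinery that KRAB zinc finger proteins recruit were mostly open and near the genome's ratio. Of a list of 28 such genes, 26 had a gene-end peak in both libraries, where 69.9% of all genes had one, with a median relative log2 ratio of 0.02, close to the 0.00 of all genes. TRIM28, which lies on chromosome 19 itself, had 127 sh-VNGD and 143 sh-ctrl tags (-0.17, -0.53 to 0.18). SETDB1 had 132 and 128 tags (0.04). Past the threshold upwards, where 9.0% of all genes lay, were DNMT3B, a de novo DNA methyltransferase, with 50 sh-VNGD and 29 sh-ctrl tags (0.79, 0.10 to 1.5), and PPHLN1, a subunit of the HUSH silencing complex, with 69 and 45 tags (0.62, 0.05 to 1.19). Past it downwards, where 5.35% of all genes lay, was CHD4, the NuRD remodeller, with 37 sh-VNGD and 73 sh-ctrl tags (-0.98, -1.59 to -0.39). EHMT2 had no peak at its ends or start, and UHRF1 had one at an annotated start only, with 56 sh-VNGD and 64 sh-ctrl tags.

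Of 8 mesenchymal and bone genes checked against the cell line's label, 4 had gene-end peaks in both libraries, against 69.9% of all genes. Of these 4, 2 lay past the threshold upwards, where 9.0% of all genes lay, and 1 downwards, where 5.35% did. TWIST1, a mesenchymal transcription factor, had 41 sh-VNGD and 12 sh-ctrl tags (1.77, 0.82 to 2.84), and COL1A2 had 19 and 11 tags (0.79, -0.36 to 2.01). FN1, which encodes fibronectin, had 44 sh-VNGD and 88 sh-ctrl tags (-1.0, -1.56 to -0.46), and COL1A1 had 75 and 94 tags (-0.33, -0.78 to 0.13). RUNX2 had a peak at an annotated start (43 sh-VNGD and 38 sh-ctrl tags), and SPARC and VIM had none at an end or annotated start. All 4 epithelial genes, 2 of 4 haematopoietic genes and 2 of 3 hepatocyte genes also had gene-end peaks in both libraries, so the peaks do not by themselves set this line apart, and the labels were used as given.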

How the data were processed

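ATAC-seq was measured in 1 sh-VNGD and 1 sh-ctrl library of U2OS cells, sequenced on the BGISEQ-500 platform per the labels' protocols. Alignment with Bowtie2 2.2.5 to a GRCh38 build, peak calling with MACS2 2.1.2 and deepTools are named in the submitters' processing notes; per the file headers the caller was MACS 2.1.0.20150731, with tags shifted by 100 bp, extended to 200 bp and a q-value threshold of 0.05. The deposited values per peak were the pileup, a signal of whole tags at the summit not scaled for depth, the fold enrichment over local background, and the −log10 q-value, all the authors' own; each library was called separately, and the summit p-value was not used here. Peaks on alternate and unplaced sequences were not analysed here.

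Gene bounds, starts and promoter sequences came from RefSeq (GRCh38.p14). Peaks of both libraries that overlapped by at least 1 bp were merged into regions. For each gene, regions within 1000 bp of either outer end were taken, the end with the higher summed pileup per kept tag was used, and the region with the highest value there gave both pileups. The log2 ratio of pileup per kept tag, sh-VNGD over sh-ctrl, was centred on the median of all genes (-0.45) and called at 0.5 or -0.5. Shares have Wilson and ratios exact Clopper-Pearson 95% intervals, which cover counting error only. Body peaks had summits over 1000 bp from both ends. Local background was (pileup + 1) divided by fold, minus 1. The steps were tested on simulated data. Python 3.11.15, pandas 2.3.3 and scipy 1.17.1 were used.

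Named members were those with the 8 highest and 8 lowest ratios where either pileup reached 30, the extremes of each cluster, the 4 tallest peaks present in 1 library, the 3 tallest gene-end peaks, and the 5 richest in body peaks by number and by density; exceptions are stated. The members, lists and motifs were chosen with earlier results of these data known. Alternatives covered windows, peak thresholds, equal peak numbers, starts, fold enrichment, local background, scaling, centring and cluster gaps.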

Additional observations from a re-analysis of the deposited data

How the results depend on the processing

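The number of members with a gene-end peak in both libraries kept within 1.5 times its value of 194 under every alternative tried. The number called lower, 6, was 2 at annotated starts only, 0 with the local background in place of the pileup, and 83 without centring on all genes, whose median of -0.45 is the shift behind that last count. The number called higher, 10, was 3 with fold enrichment, 6 with a pileup of at least 30, 1 without centring and 5 with the counting interval as the rule. The median ratio of the members, 0.00, was -0.08 with fold enrichment and 0.10 with the local background. ZNF419 changed sign with fold enrichment, to -0.10, and ZNF561 and ZNF730 with the local background, to 0.11 and 0.23; the causes were not tested. With the sh-VNGD list cut to the number of sh-ctrl peaks, the members' bodies held 547 sh-VNGD peaks, the ratio was 1.01 and the shared percentages were 56.1% for sh-VNGD and 56.4% for sh-ctrl; the shorter list accounts for the lower number. With 3 alternatives chosen after seeing the data, the body ratio was 1.57 without ZNF536 and 1.59 away from all gene ends and starts, and counting every region once left 10 higher and 6 lower. A gap of 250 kb gave 12 clusters and one of 1000 kb gave 9. No replicate could be left out with 1 library per group. No paired analysis was possible because each group has 1 library and the results come from no test. At pileups near 20 tags the counting interval of a ratio spans well over 1 log2 unit, as in ZNF792 with 21 sh-VNGD and 16 sh-ctrl tags (-0.62 to 1.43). Near the median height it was still about as wide as the distance between the thresholds, as in ZNF274 with 76 and 77 tags (-0.50 to 0.46). Members with low peaks are therefore not resolved at this depth, and those of median height barely at the threshold.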
